A study of Mus musculus with 12 samples.

Results

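The clustered replication-dependent histone genes were followed in the lungs of mice given paraquat (PQ), a herbicide whose redox cycling injures the lung. They were taken as every gene whose symbol begins with Hist1h, Hist2h, Hist3h or Hist4h, which gave 65 of the 20774 genes in the tables. The 12 libraries were bulk RNA of homogenized lung from wild-type C57BL/6J mice whose label gives 8 week as their age, sequenced on a BGISEQ 500. They fell into 4 groups of 3: PQ at 1w, saline control at 1w, PQ at 4w and saline control at 4w, where w was read as weeks, PQ was given as 1 intratracheal dose in saline, and controls received saline. The size of the dose is not given in the sources used here. Replicates were numbered but not stated to be separate mice, so p-values measure the spread between these samples, which may be technical. In bulk tissue, a change in the number of cells that carry a transcript and a change in transcript per cell cannot be told apart.

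Replication-dependent histones are the bulk packaging proteins of chromatin: H2A, H2B, H3 and H4 form the nucleosome core, and H1 binds the linker DNA between cores. Most of their genes lie in multigene clusters, are transcribed in S phase with the new DNA, and give short messages that end in a conserved stem-loop bound by SLBP in place of a poly(A) tail. Some members also give polyadenylated messages, which cells make outside S phase and in differentiated tissue. Among the 65 members, 6 encoded H1, 18 H2A, 17 H2B, 12 H3 and 12 H4. By the cluster named in the symbol, 51 belonged to Hist1 on chromosome 13, 10 to Hist2 on chromosome 3 and 3 to Hist3 on chromosome 11. The last 1, Hist4h4, stood alone on chromosome 6. The name does not hold for every member by annotation: Hist1h2al and Hist3h2bb-ps are annotated as transcribed pseudogenes. Hist1h2al, at chr13:51200084-51203066, also lies far from the other Hist1 members, the nearest of which, Hist1h2aa, is at chr13:23934437-23934913.

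The 3′ ends tell which members are annotated as the stem-loop kind, and a few are shown because they belong to the members that changed most or carried the most transcript. Transcripts of all 65 members were found in GENCODE M21 (GRCm38), 64 of them by RefSeq accession. A stem-loop of 16 bases after the stop codon was present in 45 members, and in 45 of the 49 with at least 50 annotated bases there. It began 22 to 59 bases after the stop codon, with a median of 32. The capitals mark the stem-loop, written as DNA in the sense of the transcript with the bases on either side in lower case:
Hist1h2ao (chr13:21810893-21810918, + strand): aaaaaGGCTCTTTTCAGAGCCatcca
Hist1h2ap (chr13:21833026-21833049, - strand): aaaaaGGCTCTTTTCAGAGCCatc
Hist1h1c (chr13:23739507-23739532, + strand): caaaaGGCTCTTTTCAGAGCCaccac
Hist2h2aa1 (chr3:96246027-96246052, + strand): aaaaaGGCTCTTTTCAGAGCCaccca
Hist1h2be (chr13:23585526-23585551, - strand): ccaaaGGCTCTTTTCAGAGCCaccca
Hist1h4h (chr13:23531453-23531478, + strand): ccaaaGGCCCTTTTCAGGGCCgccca
Hist1h4i (chr13:22040961-22040986, - strand): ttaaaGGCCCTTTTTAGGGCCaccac
The first 5 share 1 stem-loop sequence, which was also the commonest, in 26 members. Hist1h4h and Hist1h4i stand for the H4 genes, whose stems were spelled differently. The 45 members had 8 distinct stem-loop sequences in all. Hist1h2bc and Hist2h2be, 2 of the more abundant members, had 742 and 2192 annotated bases after the stop codon with no match to the stem-loop. Hist1h1c, Hist3h2a and Hist1h2be carried it but were annotated to run on for 840, 1643 and 1861 bases past it, whereas Hist1h2ap ended 3, Hist1h2ao 31 and Hist2h2aa1 35 bases after it. The transcripts behind the deposited counts were not always these. Their median listed lengths were 725 bases for Hist1h1c, 508 for Hist3h2a and 728 for Hist1h2bc, against 1560, 2146 and 1156 in GENCODE.

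Library totals were 17220978 to 18559809 expected counts, and levels are given as CPM, expected counts scaled to a common library total, in which 1 count was worth 0.0539 to 0.0581 CPM. The library PQ 4w replicate 3 stood apart: its chi-square per degree of freedom against the other libraries of its group was 30.9 or more, where other pairs within a group were at 7.15 to 15.5. Without it, the 6 members called at 1w and the 3 called at 4w between PQ and control all kept their calls, and Hist1h4i passed as well at 1w. Markers of cell types moved with PQ. At 1w, 6 of 9 lung markers fell, with a sum between 21124 and 23195 CPM in PQ lungs, against 47202 to 61737 CPM in control lungs. All 6 T cell, 6 B cell and 6 NK cell markers and 6 of 7 erythroid markers fell at 1w, and 7 of 10 macrophage markers rose while 1 fell. The macrophage sum went the other way from most of its genes, between 4212 and 4488 CPM in PQ 1w lungs, against 4970 to 5565 CPM in control 1w lungs. B cell markers summed to between 22.9 and 27.0 CPM in PQ 1w lungs, against 113 to 123 CPM in control 1w lungs. At 4w, 7 of 10 macrophage and 2 of 6 T cell markers rose and 2 of 9 lung markers fell, and no other listed marker passed. The edgeR fit gave cardiac markers an unadjusted p under 0.05 for 0 of 5 genes at 1w and 1 of 5 at 4w, and at 4w this held for 1 of 6 B cell, 0 of 6 NK cell and 1 of 7 erythroid markers. The log2 effects of the 5 cardiac markers at 4w were all below 0, from -2.37 to -0.94. Their sums overlapped, at 128 to 895 CPM in PQ 4w lungs, against 490 to 1412 CPM in control 4w lungs. The part of these shifts in the members' values was not tested.

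Histone transcripts were a small and uneven share of these libraries. The members summed to 212, 195 and 203 CPM in PQ 1w lungs, against 138, 174 and 155 CPM in control 1w lungs. At 4w the sums were 133, 141 and 123 CPM in PQ lungs, against 178, 170 and 161 CPM in control lungs. The groups did not overlap at either time, with PQ above control at 1w and below it at 4w, and the mean of PQ over that of control was 1.31 at 1w and 0.781 at 4w. These sums take the deposited counts of Hist1h2ao as they stand, and those came in whole multiples of 5.155, as described below. Because the members had been chosen with results of these data known, the sum was not tested. A pair of near-identical H2A genes, Hist1h2ao and Hist1h2ap, held most of the difference at 1w: without the pair, the mean sums were 151 ± 1.49 CPM in PQ 1w and 145 ± 16.7 CPM in control 1w lungs (SD, n = 3 each), a ratio of 1.04. At 4w the ratio without the pair was 0.756. Hist1h2bc, the H2B gene that alone took 37.5% of member CPM over all libraries, also weighed on the sum: without it the ratio was 1.52 at 1w and 0.886 at 4w.

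**Figure D1:**
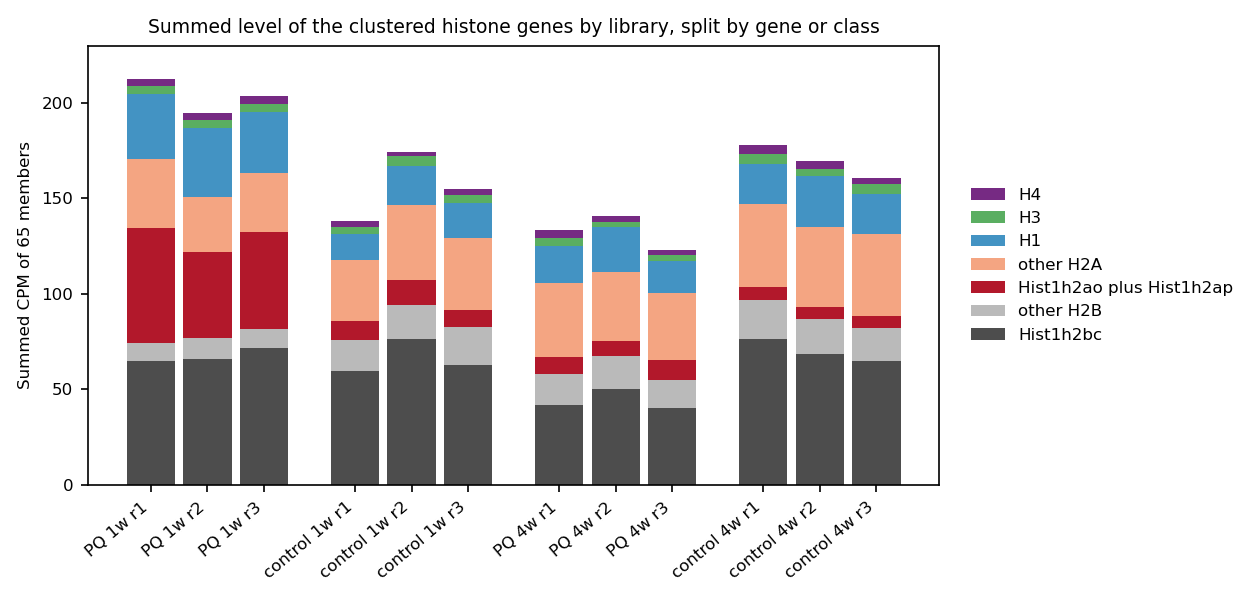
Summed CPM (y axis) of the 65 members in each of the 12 libraries (x axis; r marks the replicate), stacked by gene or class. The 3 PQ 1w libraries stand highest, at 195 to 212 CPM, with a band of 45.1 to 60.5 CPM from Hist1h2ao plus Hist1h2ap that was 6.09 to 12.9 CPM in the other 9, and the Hist1h2bc band is shortest in PQ 4w lungs. The Hist1h2ao counts in that pair's band came in whole multiples of 5.155.

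By class, the sums moved apart. H1 averaged 34.2 ± 1.95 CPM in PQ 1w and 17.4 ± 3.44 CPM in control 1w lungs, and 20.1 ± 3.65 CPM in PQ 4w and 23.0 ± 3.35 CPM in control 4w lungs (SD, n = 3 each, here and below). H2A averaged 83.9 ± 11.5 CPM in PQ 1w and 46.8 ± 5.38 CPM in control 1w lungs, and 45.7 ± 2.01 CPM in PQ 4w and 49.1 ± 1.15 CPM in control 4w lungs. Both classes were highest in the 3 PQ 1w libraries. For H2A this rested on Hist1h2ao and Hist1h2ap: the other 16 H2A members summed to 35.9, 28.7 and 30.8 CPM in PQ 1w lungs, against 31.7, 39.4 and 37.7 CPM in control 1w lungs, with overlap and a lower mean in PQ, a split made after the values were seen. H2B was close between the groups at 1w, 77.6 ± 3.79 CPM in PQ and 84.3 ± 9.14 CPM in control lungs, and at 4w it was 60.2 ± 6.64 CPM in PQ and 88.6 ± 7.44 CPM in control lungs. H3 and H4 were low as classes. H3 averaged 4.13 ± 0.0903 CPM in PQ 1w and 4.34 ± 0.631 CPM in control 1w lungs, and H4 averaged 3.61 ± 0.296 CPM in PQ 1w and 2.79 ± 0.344 CPM in control 1w lungs. At 4w, H3 averaged 3.05 ± 0.833 CPM in PQ and 4.70 ± 0.864 CPM in control lungs, and H4 averaged 3.24 ± 0.761 CPM in PQ and 4.05 ± 0.937 CPM in control lungs. By cluster, the ratio of PQ to control at 1w was 1.56 for Hist1, 0.775 for Hist2 and 0.786 for Hist3, and at 4w it was 0.730 for Hist1, 0.836 for Hist2 and 1.03 for Hist3.

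Most members were barely seen. Between 42 and 47 members had a count in a PQ 1w library, against 33 to 39 in a control 1w library. At 4w, between 33 and 39 had a count in a PQ library, against 32 to 43 in a control library. Of all 20774 genes, between 18363 and 18453 were listed in a PQ 1w library, against 18157 to 18173 in a control 1w library. At 4w these were 18252 to 18488 in PQ and 18211 to 18310 in control libraries. PQ 1w libraries also had higher totals, 18351348 to 18559809 expected counts, against 17849300 to 18249165 in control 1w libraries. The 7 members with the highest mean CPM held on average 91.8% of member counts in PQ 1w libraries, against 88.8% in control 1w libraries. Per transcript length, in FPKM averaged over all libraries, Hist1h2bc led at 88.0, followed by Hist2h2aa1 at 40.6, Hist1h1c at 32.7, Hist3h2a at 23.8, Hist1h2ao at 20.9 and Hist1h2ap at 20.3. Hist2h2be followed at 3.85 FPKM and no other member was higher. A filter on low counts (edgeR's filterByExpr) passed 21 members and left 44 untested.

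**Figure D2:**
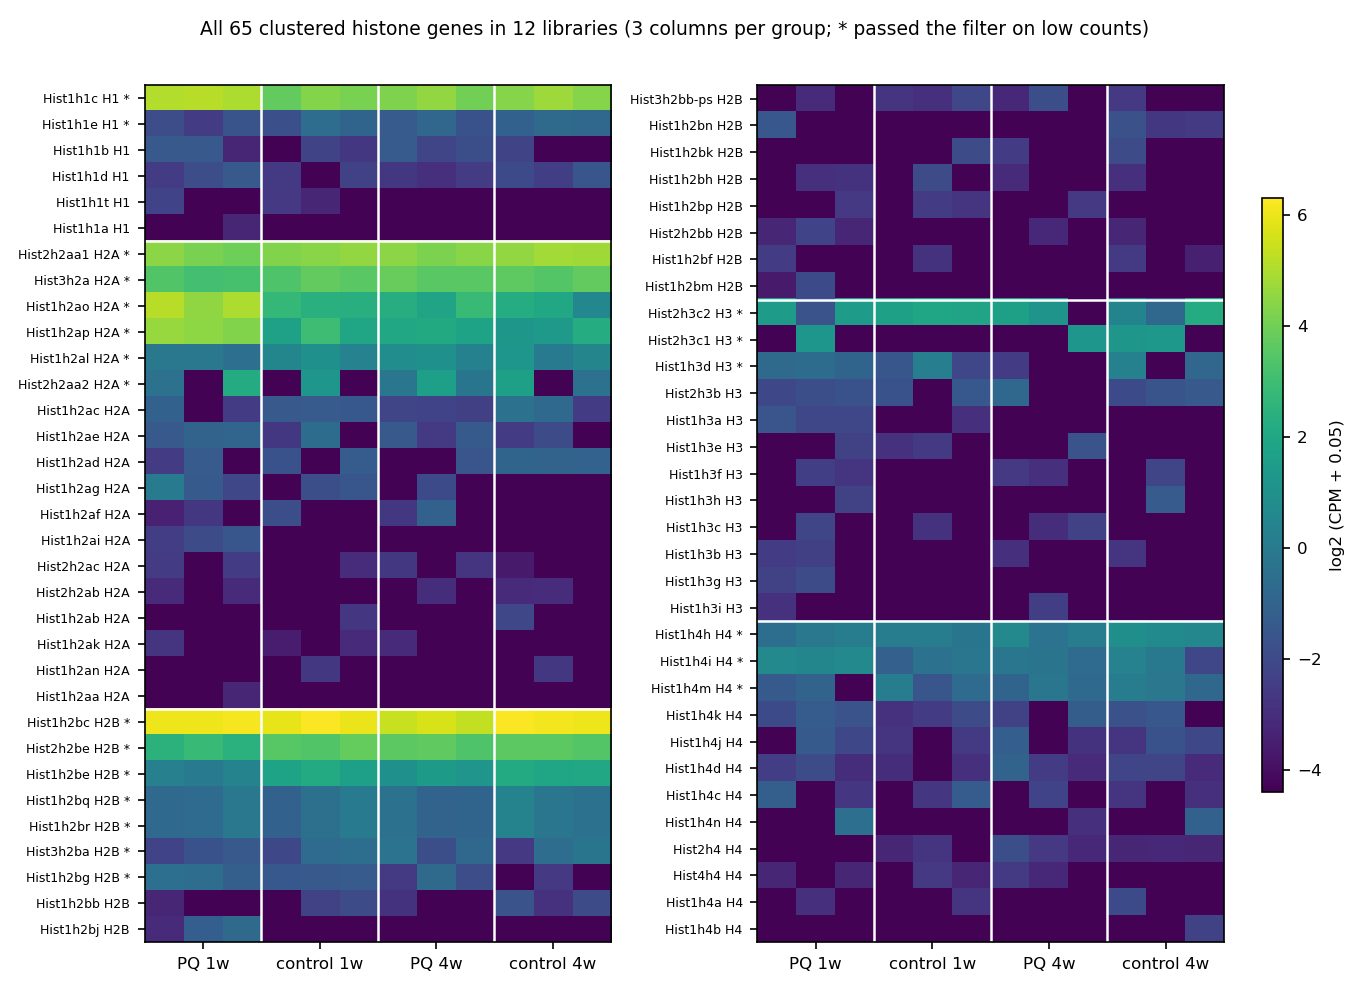
Level of all 65 members, as log2 (CPM + 0.05) on the color scale, in the 3 libraries of each group (columns), with members in rows by class and falling mean CPM and an asterisk on the 21 that passed the filter. Hist1h1c, Hist1h2ao and Hist1h2ap are brighter in PQ 1w lungs than elsewhere in their rows, most other rows are dark, and Hist1h2ai and Hist1h2bj have values in the 3 PQ 1w libraries and 0 in the other 9.

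In PQ 1w lungs 6 of the 21 tested members differed from control 1w lungs, 3 higher and 3 lower. The fit was edgeR's quasi-likelihood test on all 12 libraries, with Benjamini-Hochberg adjustment over the 15921 genes tested, and a change is called at an adjusted p under 0.05. Over all genes tested, 48.8% passed at this comparison (25.9% higher and 22.9% lower). The members' share of calls was thus no higher than the background. Their median log2 effect was -0.08, against 0.00 over all genes tested. The members that rose were Hist1h1c, Hist1h2ao and Hist1h2ap, and those that fell were Hist1h2be, Hist2h2be and Hist1h2al.

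The linker histone gene Hist1h1c (chr13:23738807-23739531, GRCm38), which encodes H1.2, rose. It measured 33.4, 35.4 and 31.5 CPM in PQ 1w lungs, against 13.2, 19.6 and 17.5 CPM in control 1w lungs. All 3 PQ libraries lay above all 3 controls. The log2 effect was 0.98 ± 0.16 (standard error, as for every log2 effect here), a 1.98-fold difference (adjusted p = 0.00037). At 4w it measured 18.5, 23.3 and 16.3 CPM in PQ lungs, against 20.2, 26.2 and 20.3 CPM in control lungs, where the groups overlapped (log2 -0.27 ± 0.16, adjusted p = 0.318). Hist1h1e, which encodes H1.4, was at 0.226, 0.12 and 0.271 CPM in PQ 1w lungs, against 0.244, 0.627 and 0.461 CPM in control 1w lungs, and did not pass (log2 -1.08 ± 0.51, adjusted p = 0.0989). Without control 1w replicate 1 that effect did pass, at log2 -1.38 (adjusted p = 0.045). Hist1h1b, below the filter, which encodes H1.5 and is known from dividing cells, had 6, 6 and 1 counts in PQ 1w and 0, 3 and 2 counts in control 1w libraries. Hist1h1a and the testis-specific Hist1h1t had at most 3 counts in any library.

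The H2A genes Hist1h2ao and Hist1h2ap, which lie on opposite strands of chromosome 13, had the largest log2 effects among the members that passed at 1w. Hist1h2ao (chr13:21810367-21810918) measured 35.3, 23.1 and 31.2 CPM in PQ 1w lungs, against 6.64, 5.14 and 5.08 CPM in control 1w lungs. Hist1h2ap (chr13:21833024-21833475) measured 25.2, 22.0 and 19.5 CPM in PQ 1w lungs, against 3.29, 7.78 and 3.78 CPM in control 1w lungs. Every PQ 1w value lay above every control value of either gene. The log2 effects were 2.39 ± 0.32 for Hist1h2ao (5.26-fold, adjusted p = 7.52e-05) and 2.16 ± 0.30 for Hist1h2ap (4.46-fold, adjusted p = 0.000106). At 4w neither passed (log2 0.56 ± 0.35, adjusted p = 0.328 for Hist1h2ao, and log2 0.23 ± 0.33, adjusted p = 0.705 for Hist1h2ap). Hist1h2ao was at 4.79, 3.54 and 7.08 CPM in PQ 4w lungs, against 4.65, 3.82 and 1.45 CPM in control 4w lungs, and Hist1h2ap at 4.05, 4.27 and 3.47 CPM in PQ 4w lungs, against 2.34, 2.54 and 4.65 CPM in control 4w lungs. The groups overlapped at 4w for both genes.

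The split of reads between these 2 genes is uncertain. Of the 50-base windows of Hist1h2ao transcripts, 93.5% also occurred in Hist1h2ap. The deposited counts of Hist1h2ao were also not single reads: in all 12 libraries they were whole multiples of 5.155, to within 0.00108 of a multiple. In those units Hist1h2ao had 127, 83 and 111 in PQ 1w, 23, 18 and 18 in control 1w, 16, 12 and 24 in PQ 4w and 16, 13 and 5 in control 4w libraries. The sum of the 2 genes does not depend on the split but does hold those multiples. Summed, the pair measured 60.5, 45.1 and 50.7 CPM in PQ 1w lungs, against 9.93, 12.9 and 8.86 CPM in control 1w lungs, with log2 2.29 ± 0.16 (4.90-fold, adjusted p = 4.84e-07). At 4w the summed pair measured 8.83, 7.81 and 10.5 CPM in PQ lungs, against 6.99, 6.37 and 6.09 CPM in control lungs, and did not pass (log2 0.40 ± 0.17, adjusted p = 0.144). In controls it was lower at 4w than at 1w (log2 -0.71 ± 0.17, adjusted p = 0.0286), a call made only with the copies summed.

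The promoters of the members that rose are shown because 2 of them share sequence. The 150 bases before the RefSeq start (GRCm38.p6) are given in the sense of transcription, with matches to CCAAT and AAACACA in capitals, on either strand (a CCAAT on the other strand reads ATTGG here):
Hist1h2ao (chr13:21810217-21810366, + strand): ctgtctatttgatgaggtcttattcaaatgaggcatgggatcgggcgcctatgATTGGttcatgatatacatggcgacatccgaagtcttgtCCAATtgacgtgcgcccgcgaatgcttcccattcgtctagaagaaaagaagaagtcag
Hist1h2ap (chr13:21833476-21833625, - strand): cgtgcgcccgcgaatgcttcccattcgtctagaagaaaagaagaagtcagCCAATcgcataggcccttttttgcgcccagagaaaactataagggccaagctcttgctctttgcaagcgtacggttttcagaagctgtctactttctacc
Hist1h1c (chr13:23738657-23738806, + strand): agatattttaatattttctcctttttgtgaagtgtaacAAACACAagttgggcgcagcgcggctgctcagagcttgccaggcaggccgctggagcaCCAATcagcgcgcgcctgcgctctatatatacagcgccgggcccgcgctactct
The RefSeq windows of Hist1h2ao and Hist1h2ap, 250 bases before to 50 after the start, held an identical run of 200 bases at an offset of 100 bases, so the 2 annotated starts are not at the same place in the shared sequence. CCAAT, the box bound by NF-Y, was found on either strand in 50 of 58 member windows (86.2%), against 41.1% of all 27025 gene windows. It was in all windows of H1, H2A, H2B and H3 members but in 3 of 11 of H4. TATAAA was in 55.2% of member windows, against 15.7% of all. TTTGCAT, the core of the octamer bound by POU factors, was in 22.4%, against 5.24% of all, and in 6 of 14 H2B and 6 of 17 H2A windows. The 58 windows are not all separate stretches: those of Hist1h2ae and Hist1h2bg overlap, as do those of Hist1h2ao and Hist1h2bq. A match within such an overlap counts for both genes. AAACACA, known as the H1 box, was in 5 of 6 H1 windows, against 8.22% of all. Hist2h2aa1 and Hist3h2a, which did not pass at 1w, had CCAAT on both strands within 150 bases of the start, as had Hist1h2ao.

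The other abundant H2A genes did not pass at 1w in the edgeR fit of all 12 libraries. Hist2h2aa1 (chr3:96245497-96246052) measured 21.4, 17.8 and 15.3 CPM in PQ 1w lungs, against 19.2, 20.8 and 23.3 CPM in control 1w lungs, with overlap (log2 -0.23 ± 0.13, adjusted p = 0.154). Without PQ 1w replicate 1 it passed as lower, at log2 -0.37 (adjusted p = 0.0259). Its copy Hist2h2aa2 was at 0.719, 0 and 4.53 CPM in PQ 1w lungs, against 0, 2.30 and 0 CPM in control 1w lungs. Summed, the 2 did not pass at 1w (log2 -0.15 ± 0.10, adjusted p = 0.236). Hist3h2a (chr11:58954685-58955192), of the small Hist3 cluster, measured 10.6, 8.63 and 8.97 CPM in PQ 1w lungs, against 10.1, 13.1 and 11.9 CPM in control 1w lungs (log2 -0.33 ± 0.14, adjusted p = 0.0641). That effect passed without PQ 1w replicate 1 (log2 -0.43, adjusted p = 0.0356) or control 1w replicate 1 (log2 -0.42, adjusted p = 0.032). It passed also by limma on log2 (FPKM + 0.1) (-0.31, adjusted p = 0.0412) and on log2 (FPKM + 1) (-0.30, adjusted p = 0.0423). Of the 50-base windows of the GENCODE transcript of Hist3h2a, 31.5% lay also in the overlapping gene Trim17, and the strandedness of the libraries is not given in the sources used here. That transcript has 2146 bases, against 508 listed with the counts, and the share within those 508 was not worked out. Hist1h2al, an annotated pseudogene, measured 0.873, 0.87 and 0.671 CPM in PQ 1w lungs, against 1.36, 1.94 and 1.24 CPM in control 1w lungs, without overlap. It fell by 0.94 ± 0.36 on the log2 scale (adjusted p = 0.0474), a call lost without any 1 of the 6 libraries of that time, without control 4w replicate 3 and without PQ 4w replicate 1 or 2 (adjusted p 0.0513 to 0.168). It was also lost with no filter, by DESeq2 and by limma (adjusted p 0.0557 to 0.115).

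Among H2B genes, Hist2h2be and Hist1h2be fell at 1w, and Hist1h2bc, the most abundant member, did not pass. Hist2h2be (chr3:96221072-96223738) measured 5.52, 7.12 and 5.39 CPM in PQ 1w lungs, against 11.5, 10.4 and 13.5 CPM in control 1w lungs. The groups were well apart, and it fell by 0.98 ± 0.15 on the log2 scale (0.506-fold, adjusted p = 0.000186). Hist1h2be (chr13:23583670-23621124) measured 1.15, 0.949 and 1.25 CPM in PQ 1w lungs, against 3.43, 4.32 and 3.06 CPM in control 1w lungs, and fell by 1.69 ± 0.21 (0.309-fold, adjusted p = 4.54e-05). Per transcript length the gap was smaller, at 0.997 ± 0.119 FPKM in PQ 1w and 1.69 ± 0.257 FPKM in control 1w lungs, and limma on log2 (FPKM + 0.1) put it at -0.71 (adjusted p = 0.00524). The transcript length listed for Hist1h2be was 1082, 1126 and 1211 bases in PQ 1w libraries, against 1787, 2483 and 2153 bases in control 1w libraries. The part of that length in either value was not tested. Both genes had windows that were mostly their own, 100% for Hist2h2be and 82.5% for Hist1h2be. Hist1h2bc (chr13:23684199-23692480) measured 64.9, 66.0 and 71.8 CPM in PQ 1w lungs, against 59.7, 76.4 and 62.5 CPM in control 1w lungs, with the PQ values inside the control range (log2 0.02 ± 0.11, adjusted p = 0.913). Hist1h2bq and Hist1h2br had identical values in every library, and 0% of the windows of Hist1h2bq were its own. Neither passed at either time. Hist3h2ba was at 0.162, 0.259 and 0.323 CPM in PQ 1w lungs, against 0.187, 0.582 and 0.640 CPM in control 1w lungs (log2 -0.92 ± 0.69, adjusted p = 0.296).

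**Figure D3:**
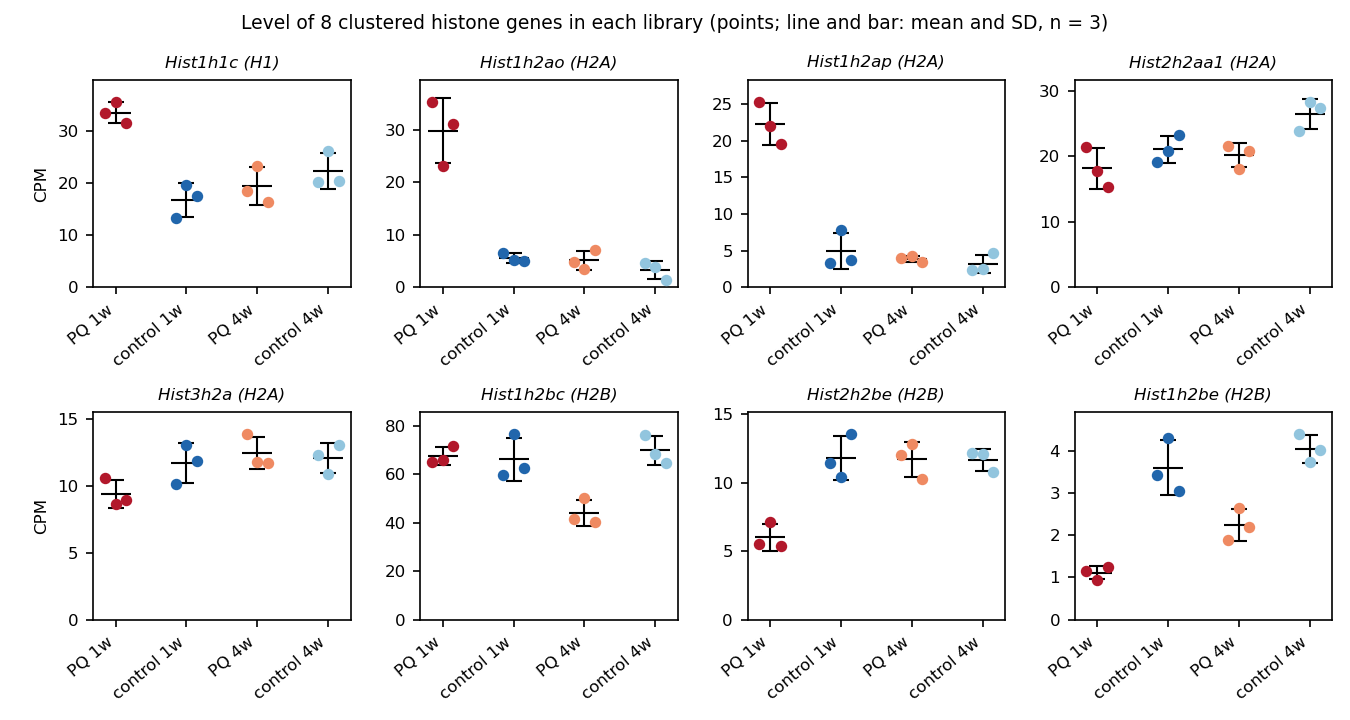
CPM (y axis, from 0) of 8 members in each library (points) by group (x axis), with the mean and SD of 3 libraries. Hist1h1c, Hist1h2ao and Hist1h2ap are high in PQ 1w lungs, Hist2h2be and Hist1h2be are low there, and Hist1h2bc is low in PQ 4w lungs, at 40.4 to 50.1 CPM.

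None of the 6 tested H3 and H4 members passed between PQ and control at either time in the edgeR and DESeq2 fits of all 12 libraries. At an unadjusted p under 0.05 in edgeR there were 0 of 3 H3 and 1 of 3 H4 members at 1w, against 8775 of the 15921 genes tested, and 1 of 3 in each class at 4w, against 4456. Leaving out 1 library changed some of these: without control 4w replicate 2, Hist1h3d passed as lower in PQ 4w lungs (adjusted p = 0.0379). In H4, Hist1h4i came closest, with 1.52, 1.37 and 1.52 CPM in PQ 1w lungs, against 0.412, 0.697 and 0.809 CPM in control 1w lungs. Its PQ 1w values all lay above its control 1w values (log2 1.16 ± 0.47, adjusted p = 0.0565), and it passed without control 4w replicate 1 or 3 or PQ 4w replicate 3 (adjusted p 0.00913 to 0.0489), as it did in a fit of the 2 groups alone (adjusted p = 0.0122). Hist1h4h, the H4 gene with the highest mean CPM, measured 0.637, 0.865 and 1.01 CPM in PQ 1w lungs, against 1.06, 1.01 and 0.808 CPM in control 1w lungs, and Hist1h4m was at 0.341, 0.455 and 0 CPM in PQ 1w lungs, against 1.02, 0.293 and 0.582 CPM in control 1w lungs. In H3, Hist2h3c1 was at 0 in 8 of 12 libraries. Of the windows of Hist2h3c1 0% were its own, and all occurred also in the annotated gene Gm20634. The sum of Hist2h3c1 and its copy Hist2h3c2 was 2.74, 2.52 and 2.72 CPM in PQ 1w lungs, against 3.18, 3.75 and 3.59 CPM in control 1w lungs. At 4w it was 3.17, 2.17 and 2.27 CPM in PQ lungs, against 3.66, 2.91 and 4.45 CPM in control lungs. The summed pair did not pass at 1w (log2 -0.41 ± 0.20, adjusted p = 0.105) or at 4w (log2 -0.60 ± 0.20, adjusted p = 0.0717). Hist1h3d had 0 counts in 2 of 3 PQ 4w libraries and in 1 control 4w library.

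The 44 members below the filter were seen most in PQ 1w lungs. Their counts summed to 87.4 to 96.8 per PQ 1w library, against 34.4 to 63.8 per control 1w library, and at 4w the median was 42.1 per PQ library, against 58.4 per control library. Between 22 and 27 of them had a count in a PQ 1w library, against 14 to 20 in a control 1w library. More of all genes were listed in PQ 1w libraries too, as given above. Some were detected in PQ 1w lungs alone, and these were singled out after their values were seen. Hist1h2ai had 2.47, 4.01 and 5.34 counts, and Hist1h2bj had 1.17, 7.08 and 10.5 counts, in the 3 PQ 1w libraries and 0 in the other 9. Hist1h3a had 5.35, 3.28 and 3.29 counts in PQ 1w, against 0, 0 and 1.42 in control 1w libraries, and 0 in all libraries of 4w. Hist1h2ag had 18.4, 6.33 and 3.26 counts in PQ 1w, against 0, 4.19 and 5.32 in control 1w libraries. Of their 50-base windows, 9.88% were the gene's own for Hist1h2ai, 21.1% for Hist1h2ag, 40.6% for Hist1h2bj and 50.5% for Hist1h3a. For Hist1h2ag, 71.8% also occurred in Hist1h2ao. Which copy these few counts came from was not tested. A count of 0 allows up to 3 counts, or 0.162 to 0.174 CPM at the depth of these libraries, and covers counting error only. With no filter, the count test on all genes also called Hist1h2ai, Hist1h2bj and Hist1h3a higher in PQ 1w lungs, which made 6 members higher in place of 3. That fit tested more members than the 21, and its share of calls over all genes is not given here. These genes had been singled out for their counts in PQ 1w lungs, so the calls are no separate evidence.

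At 4w, 3 of the 21 tested members fell in PQ lungs and 0 rose. Over all genes tested, 12.1% passed (5.75% higher and 6.39% lower), and at an unadjusted p under 0.05 there were 8 of 21 members in either direction, against 4456 of the 15921 genes tested. Those 8 include Hist1h2bq and Hist1h2br, whose values were identical in every library, so the same values were counted more than once. The 0 higher also held with DESeq2, while limma on log2 (FPKM + 0.1) called 1 higher, Hist1h2bg, also called higher by edgeR without control 4w replicate 2. Hist1h2bg was singled out after its values were seen, and had 2.01, 9.96 and 3.92 counts in PQ 4w, against 0, 1.96 and 0 counts in control 4w libraries. The median log2 effect of the members was -0.30, against 0.00 over all genes tested. Hist1h2bc measured 41.7, 50.1 and 40.4 CPM in PQ 4w lungs, against 76.4, 68.5 and 64.7 CPM in control 4w lungs. The groups were apart, and it fell by 0.74 ± 0.12 on the log2 scale (0.600-fold, adjusted p = 0.00293). Hist1h2be measured 1.89, 2.65 and 2.20 CPM in PQ 4w lungs, against 4.39, 3.73 and 4.02 CPM in control 4w lungs. It fell by 0.92 ± 0.20 (0.528-fold, adjusted p = 0.0121), a call lost without control 4w replicate 1 (adjusted p = 0.0592) or PQ 4w replicate 1 (adjusted p = 0.0502). Hist2h2aa1 measured 21.6, 18.1 and 20.8 CPM in PQ 4w lungs, against 23.9, 28.3 and 27.3 CPM in control 4w lungs, and fell by 0.47 ± 0.12 (0.724-fold, adjusted p = 0.0307). That call was lost without any 1 of the control 4w libraries or PQ 4w replicate 1 or 2 (adjusted p 0.0595 to 0.108), and without scaling by TMM (adjusted p = 0.0597). It was also lost by limma on log2 (FPKM + 0.1) (adjusted p = 0.0625) and on log2 (FPKM + 1) (adjusted p = 0.0618). None of the 50-base windows of Hist2h2aa1 was its own, and all occurred also in the annotated gene Gm20633. The share found in its copy Hist2h2aa2 is not given here. Summed with that copy, Hist2h2aa1 fell by 0.43 ± 0.10 on the log2 scale (adjusted p = 0.0159). Hist1h2be was the only member that fell at both times. Hist2h2be lay between 10.3 and 12.8 CPM in PQ 4w lungs, against 10.8 to 12.2 CPM in control 4w lungs, and did not pass (log2 -0.07 ± 0.14, adjusted p = 0.798).

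The PQ effects differed between the times for 5 members, with 1 higher and 4 lower at 4w than at 1w, where this interaction term passed for 32% of all genes tested (14.1% higher and 17.9% lower). As differences of log2 effects (4w minus 1w), Hist1h2ap was at -1.93 ± 0.45, Hist1h2ao at -1.83 ± 0.47, Hist1h1c at -1.25 ± 0.23 and Hist1h2bc at -0.75 ± 0.16. Hist2h2be was at 0.91 ± 0.21. The first 3 rose at 1w and did not pass at 4w, Hist1h2bc fell at 4w and did not pass at 1w, and Hist2h2be fell at 1w and did not pass at 4w. The adjusted p of these differences was 0.0018 to 0.0117. For Hist1h2be, which fell at both times, the difference of 0.77 ± 0.29 did not pass (adjusted p = 0.0595), though it did without PQ 4w replicate 1 (0.88, adjusted p = 0.048) and with library totals in place of TMM (0.83, adjusted p = 0.0399). By limma on log2 (FPKM + 0.1) it was -0.09 (adjusted p = 0.807). Leaving out 1 library also brought this term past the threshold for Hist1h3d (without control 1w or control 4w replicate 2), Hist2h3c1 (without PQ 4w replicate 3), Hist1h4i (without control 4w replicate 3) and Hist1h2al (without control 4w replicate 1), at an adjusted p of 0.0155 to 0.0469.

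**Figure D4:**
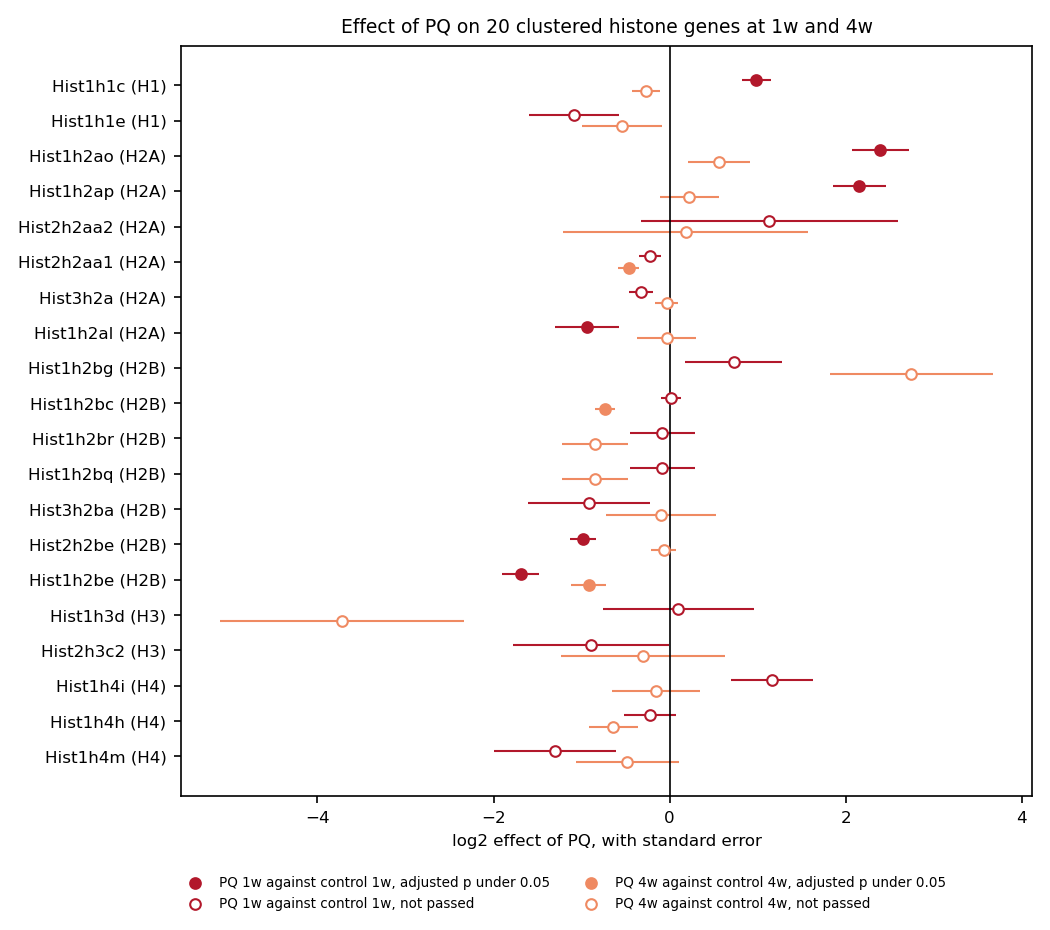
Log2 effect of PQ with its standard error (x axis) on 20 of the 21 tested members (rows, by class and falling effect at 1w), at 1w (dark) and 4w (light), with filled points where adjusted p was under 0.05. Hist2h3c1 is left out because its 3 control 1w libraries were at 0. Filled points lie on the right at 1w for Hist1h1c, Hist1h2ao and Hist1h2ap, and all filled points at 4w lie on the left.

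Between the times in PQ lungs, 8 members differed at 4w from 1w, where 54.5% of all genes tested passed (26.7% higher and 27.8% lower). The 5 lower at 4w were Hist1h2ao (log2 -2.61 ± 0.32), Hist1h2ap (-2.57 ± 0.31), Hist1h1c (-0.86 ± 0.16), Hist1h2bc (-0.68 ± 0.12) and Hist1h3d, with at most 2.08 counts in a PQ 4w library against 8.66 to 11.3 in PQ 1w libraries. The 3 higher at 4w were Hist1h2be (0.93 ± 0.22), Hist2h2be (0.89 ± 0.15) and Hist1h2al (0.93 ± 0.36, adjusted p = 0.0445). Hist3h2a did not pass (0.34 ± 0.14, adjusted p = 0.0524). It did pass as higher with library totals, upper quartile scaling, a filter of 1 CPM in 3 libraries and limma on FPKM at either pseudocount. The same held without control 1w replicate 1 or PQ 1w replicate 1. Hist1h2be was not higher at 4w per transcript length, with 0.893 ± 0.150 FPKM in PQ 4w and 0.997 ± 0.119 FPKM in PQ 1w lungs, and its call was lost with limma on FPKM at either pseudocount. These contrasts share their PQ libraries with the comparisons against control and are no separate evidence. The call of Hist1h3d was lost without any 1 of the PQ 1w libraries and without PQ 4w replicate 2 or 3, in the fit of the 2 groups alone and by limma on log2 (FPKM + 1). That of Hist1h2al was lost without any 1 of the PQ 1w libraries, PQ 4w replicate 1 or 2, control 1w replicate 1 or 3 and control 4w replicate 3, with no filter, by DESeq2 and by limma on log2 (FPKM + 1). In saline lungs 0 of 21 members passed between 4w and 1w by edgeR and by DESeq2, where 10.1% of all genes tested passed (5.9% higher and 4.2% lower). An unadjusted p under 0.05 was found there for 6 of 21 members, against 4474 of the 15921 genes tested. Markers and cycle genes differed between the times too. In PQ lungs all 6 T cell, 6 B cell and 6 NK cell markers were higher at 4w than at 1w. So were 4 of 9 lung and 1 of 5 cardiac markers, and 1 of 7 erythroid markers was lower. Of 10 macrophage markers 6 were lower and 1 was higher. The macrophage sum went the other way from most of its genes, between 5317 and 6542 CPM in PQ 4w lungs, against 4212 to 4488 CPM in PQ 1w lungs. All 32 replication and 25 mitosis genes listed were lower at 4w than at 1w. In saline lungs 4 of 5 cardiac markers were higher at 4w, with a sum between 490 and 1412 CPM in control 4w lungs, against 46.6 to 265 CPM in control 1w lungs, and 24 of 25 mitosis and 12 of 32 replication genes were lower. The part of these shifts in the members' values was not tested.

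Genes of DNA replication, with which these histones are made in S phase, were read beside them at 1w. In PQ 1w lungs all 32 listed replication genes rose, with a median log2 effect of 1.49, and all 25 mitosis genes rose, with a median of 2.32. Rrm1, a subunit of ribonucleotide reductase, rose 2.98-fold (adjusted p = 1.85e-08), Uhrf1, which maintains DNA methylation at replication forks, 5.24-fold (adjusted p = 1.12e-07), and Foxm1 and Kif20a, a regulator and a motor of mitosis, 5.46-fold and 5.53-fold. At 4w, 11 of 32 replication genes and 11 of 25 mitosis genes were higher and 0 of either lower. Whether the members' effects differ from those lists was not tested.

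The genes that handle histones were split. Of 25 genes of histone transcription and message processing, 4 rose and 3 fell at 1w. Over all genes tested, 25.9% were higher and 22.9% lower at 1w, so both shares in this list were below the background. The same background applies to the chaperones and variant histones below. Slbp, which binds the stem-loop, rose 1.47-fold (adjusted p = 0.00152), and Eri1, an exonuclease that trims stem-loop messages, 1.43-fold (adjusted p = 4.31e-05). Npat, the coactivator of histone loci, was singled out after its values were seen: it did not pass at 1w (1.13-fold, adjusted p = 0.146) and rose 1.28-fold at 4w (adjusted p = 0.029). Of 23 histone chaperones, 13 rose and 1 fell at 1w, Chaf1b of the CAF-1 complex 5.20-fold (adjusted p = 1.29e-06) and Mms22l, which acts at stalled forks, 4.01-fold (adjusted p = 3.48e-07). Of 11 variant histones, whose messages are mostly polyadenylated, 7 rose at 1w and 0 fell. H2afz, which encodes H2A.Z, rose 2.19-fold (adjusted p = 6.47e-08), and Cenpa, the centromeric H3, 3.33-fold (adjusted p = 3.40e-07). The linker variants H1f0 and H1fx, also singled out after their values were seen, rose 2.32-fold and 3.80-fold. The variants summed to between 1749 and 1874 CPM in PQ 1w lungs, against 1291 to 1364 CPM in control 1w lungs.

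**Figure D5:**
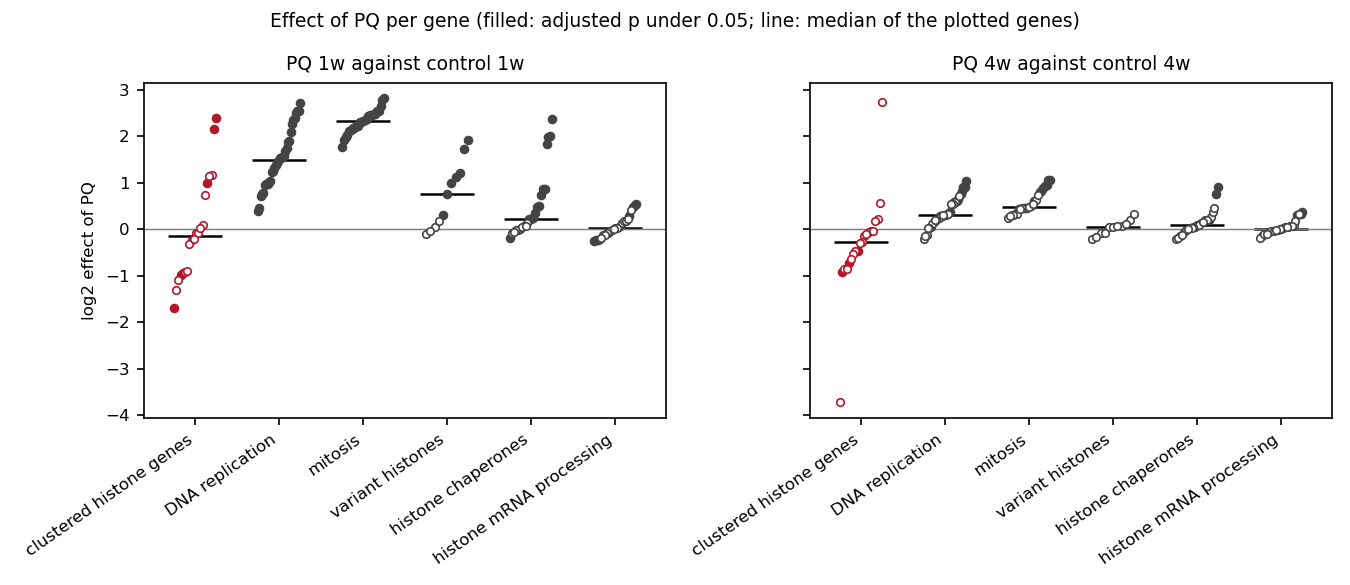
Log2 effect of PQ (y axis) per gene for 20 tested members and 5 lists of related genes (x axis), at 1w and at 4w, filled where adjusted p was under 0.05, with a line at the median of the plotted genes. All replication and mitosis genes are filled and above 0 at 1w, and the members lie on both sides of 0.

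RNAs known to lack a poly(A) tail were read beside the members. Whether the libraries were made from poly(A) RNA or from rRNA-depleted RNA is not given in the sources used here, and the labels name total RNA as the extract. A list of 10 abundant RNAs without a tail, such as Rn7sk and Rmrp, summed to 0.728 to 5.48 CPM over all libraries, and 113 small nuclear and nucleolar RNAs to 10.8 to 15.7 CPM. By edgeR, none of the 3 and 8 tested genes of those lists passed at 1w or 4w, and 1 of the 8 had an unadjusted p under 0.05 at 1w. The 3 members listed as having polyadenylated messages, Hist1h2bc, Hist1h1c and Hist2h2be, summed to 104 to 109 CPM in PQ 1w lungs, against 84.3 to 106 CPM in control 1w lungs. At 4w they summed to 67.0 to 86.2 CPM in PQ lungs, against 95.8 to 109 CPM in control lungs. Which form of message the reads came from was not tested.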

How the data were processed

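RNA of 12 lung libraries was read on a BGISEQ 500, as the labels' protocols state. The submitters' processing notes name HISAT, RSEM 1.2.12 and the build mm10, and no annotation release, strandedness or RNA selection was found in the labels. The authors deposited expected counts per gene, which are not scaled to depth, and FPKM, which are scaled to depth and length, per the file headers. Of the listed expected counts 69.7% were whole, and genes absent from a library's table were set to 0. There were 27 symbols that read as dates, left as they stand.

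CPM are expected counts scaled to the raw library total. Counts were rounded and tested with edgeR 4.0.16 (glmQLFit, glmQLFTest, TMM, filterByExpr with a minimum count of 10 and a minimum total of 15) in R 4.3.3, as 4 group means over 12 libraries, after the procedure was tested on simulated data. Standard errors are the absolute log2 effect over the square root of F. TMM factors were 0.974 to 1.06. The genes named were the 3 members with the highest mean CPM in each class, the 5 highest and 5 lowest effects past adjusted p 0.05 at 1w and at 4w, every tested member of Hist2, Hist3 and Hist4, and the 2 genes with the smallest p at 1w from each list other than markers, with Slbp. Members and lists were chosen with earlier results of these data known. Of 183 list symbols 180 matched. Stem-loops and 50-base windows came from GENCODE M21 transcripts (GRCm38), and promoters of 58 members from RefSeq. The GENCODE transcripts differed in length from those listed with the counts for some members. Alternatives used DESeq2 1.42.0, limma 3.58.1 with pseudocounts 0.1 and 1, other filters and scalings, a replicate block and leaving out each library. Libraries of a group all differed by more than sampling noise. Floors cover counting error only.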

Additional observations from a re-analysis of the deposited data

Results flagged for a closer look

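The PQ effect differed between the times, by the interaction term of the edgeR fit, for 5 members and for 10 of the related genes named. This term passed for 32% of all genes tested. The related genes were named for the smallest p at 1w in their lists, a choice that favours a smaller effect at 4w. Rn7sk, Rn7s1, Snora28 and Snord96a, named by the same rule, did not pass. As differences of log2 effects (4w minus 1w, adjusted p after each), Hist1h2ap was at -1.93 ± 0.45 (0.00665), Hist1h2ao at -1.83 ± 0.47 (0.0117), Hist1h1c at -1.25 ± 0.23 (0.0018), Hist1h2bc at -0.75 ± 0.16 (0.0044) and Hist2h2be at 0.91 ± 0.21 (0.00568). The sign of each of these 5 differences was the same in all alternatives run, and all stayed under an adjusted p of 0.05.

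Among the related genes the difference was -2.14 for Foxm1, -2.04 for Kif20a, -2.01 for Chaf1b, -1.62 for Uhrf1, -1.55 for Cenpa, -1.28 for Rrm1, -1.10 for Mms22l, -1.07 for H2afz, -0.44 for Eri1 and -0.51 for Slbp. Of these, the difference of Slbp (adjusted p = 0.0282) did not pass in 11 of the alternatives, where its adjusted p was 0.0523 to 0.0718. Outlying samples of single genes were not looked for within the groups of 3.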

How the results depend on the processing

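Hist1h1c and Hist1h2ao were called higher, and Hist1h2be and Hist2h2be lower, in PQ 1w lungs under each alternative run, as was Hist1h2ap where it was not summed with its copy. Hist1h2bc was called lower in PQ 4w lungs under each. With no filter, and so with more members tested, 6 members rose at 1w and 8 were lower in PQ 4w than in PQ 1w lungs. With limma on log2 (FPKM + 0.1), 1 member was higher in PQ 4w than control 4w lungs and 1 lower in control 4w than control 1w lungs, Hist1h2bg both times. With library totals in place of TMM, 2 members had a higher interaction term. With near-identical copies summed, an alternative chosen after seeing the data, 1 member was higher and 1 lower in control 4w than in control 1w lungs. Leaving out 1 library at a time gave 0 to 1 members higher (Hist1h2bg, without control 4w replicate 2) and 1 to 3 lower in PQ 4w against control 4w lungs (1, without control 4w replicate 1 or PQ 4w replicate 1), 1 to 2 with a higher interaction term and 0 to 1 lower in control 4w against control 1w lungs. The summed level of PQ over control moved at 1w to 1.52 without Hist1h2bc and to 1.04 without Hist1h2ao and Hist1h2ap, the second chosen after seeing the data, and at 4w to 0.886 without Hist1h2bc. The causes were not tested.

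Groups share replicate numbers, but the numbers do not show pairs: 5 of 18 same-number pairs correlated over 0.1, with a range of -0.41 to 0.36. With a replicate block, 3 members rose and 3 fell at 1w, and 2 fell in place of 3 at 4w, where Hist2h2aa1 had an adjusted p of 0.0531. The members below the filter had few counts each, and with no filter the calls among them were Hist1h2ai, Hist1h2bj and Hist1h3a, higher in PQ 1w than in control 1w and lower in PQ 4w than in PQ 1w lungs, and Hist2h4, higher in PQ 4w than in PQ 1w lungs.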
